A study of Mus musculus with 6 samples.

Results

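Genes for ribosome biogenesis factors, the proteins that transcribe, modify, cut and fold ribosomal RNA and assemble it with ribosomal proteins, were compared between transformed B cell precursors with and without Dusp6. The set was given as 41 gene names. A member was measured through a probe set that carried exactly 1 gene symbol in the platform annotation, and the probe set with the highest mean over the 6 arrays was taken where a gene had several. This gave 39 members among 19938 measured genes. Of the other two, Noc2l was not analysed here, and Ppan shares its probe set with another symbol, so no value is given for it. Odc1 and Srm are not assembly factors but enzymes of polyamine synthesis, and are described apart.

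The study measured total RNA on Affymetrix arrays from mouse pre-B cells transformed by BCR-ABL1, a fused tyrosine kinase that drives a high-risk form of human leukaemia. The wild-type group (Dusp6 WT, 3 arrays) and the knockout group (Dusp6 KO, 3 arrays) both carried BCR-ABL1 and both came from mice of the mixed strain C57Bl/6-SV129j, and the labels name no treatment, time or age. Dusp6 is a phosphatase that switches off the kinase ERK. The comparison addresses which transcripts differ in leukaemia cells without that brake. Whether replicates were grown or bred apart is not stated, nor is the part of Dusp6 that was deleted. The p-values therefore cover only the variation among these 6 samples, and that may be technical.

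Ribosome synthesis starts in the nucleolus, where RNA polymerase I copies the long precursor of the ribosomal RNAs. Small nucleolar RNA particles guide its methylation and pseudouridylation, the small subunit processome folds and cleaves it, and separate sets of factors carry the small and the large subunit through maturation and export. MYC is a known activator of many of these genes, growth factor signalling through ERK is known to stimulate polymerase I, and fast-growing leukaemia cells depend on the supply of ribosomes.

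Values are log2 signals as deposited, and differences are knockout minus wild type on that scale, with the standard error of limma. The correlation between arrays was 0.996 to 0.998 within a genotype and 0.987 to 0.989 across genotypes. Dusp6 itself read 12.44 ± 0.072 (SD, n = 3) on the wild-type and 9.08 ± 0.058 (SD, n = 3) on the knockout arrays, a difference of -3.36 ± 0.052 (limma adjusted p = 4.3e-10). Of 12 measured markers of B cell precursors, all had a wild-type mean of at least 9.39, above the array medians of 8.38 to 8.42. In knockout 1 of these markers rose, Rag1 (0.20), and 5 fell, among them Dntt (-1.42), Rag2 (-0.43) and Il7r (-0.31). That is 50% called, against 19.8% of all genes. The part of these markers in the members' values was not tested. Of 27 markers of myeloid, T and NK, erythroid and megakaryocyte, or stromal cells, 21 lay below the array medians in both genotypes and 1 was called, the lysozyme gene Lyz2 (0.70, adjusted p = 1.8e-05). On the log2 scale of mean signal, the 10 myeloid markers stood at 7.81 to 7.85 in wild type and 8.001 to 8.06 in knockout, the 7 T and NK markers at 7.41 to 7.48 and 7.47 to 7.53, the 4 erythroid and megakaryocyte markers at 7.86 to 8.03 and 7.89 to 7.90, and the 6 stromal markers at 8.34 to 8.35 and 8.34 to 8.40. Of the myeloid markers other than Lyz2, all 9 were uncalled, with differences from -0.11 (Itgam) to 0.087 (Csf3r). The part of the Lyz2 difference in the results was not tested.

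Few of the ribosome biogenesis factors passed the test between the genotypes. Of the 39 members, 1 rose and 4 fell in the knockout cells at an adjusted p under 0.05 (limma, Benjamini-Hochberg over all 19938 genes). That is 12.8% of the members, where 19.8% of all genes were called, 9.66% higher and 10.2% lower. The shares over all genes, here and below, include genes of far weaker signal than any member. Wild-type means ran from 3.51 to 14.75 over all genes and from 10.20 to 13.70 in the members. A share over genes of like signal is not given here. The gene that rose was Rrp9, and those that fell were Rrs1, Odc1, Rrp12 and Utp14a. The call of Odc1 holds on only 1 of its probe sets, as described with the polyamine enzymes. The values of the genotypes were fully separated in 12 members, 4 higher and 8 lower in knockout, or 30.8% of the members against 35.7% of all genes (17.3% higher and 18.4% lower). An unadjusted p under 0.05 was found for 8 members, against 30.6% of all genes. In cells measured in bulk, fewer cells of a kind and less RNA per cell cannot be told apart.

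The members as a whole lay slightly below 0. Their median difference was -0.026, with 13 members above 0 and 26 below, while the median over all genes was 0.0018. Their median absolute difference was 0.065, against 0.071 over all genes. The 34 members that were not called differed by -0.14 to 0.11, and the 95% interval of each of them stayed inside -0.25 to 0.25, that is, within 1.19-fold in either direction. Over all genes, 69.1% had an interval inside those bounds. The bound holds for the probe set used: the intervals of the other probe sets of Wdr12, Ddx18 and Fbl reached 0.26, 0.26 and -0.27. A difference below the bound may exist.

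**Figure D1:**
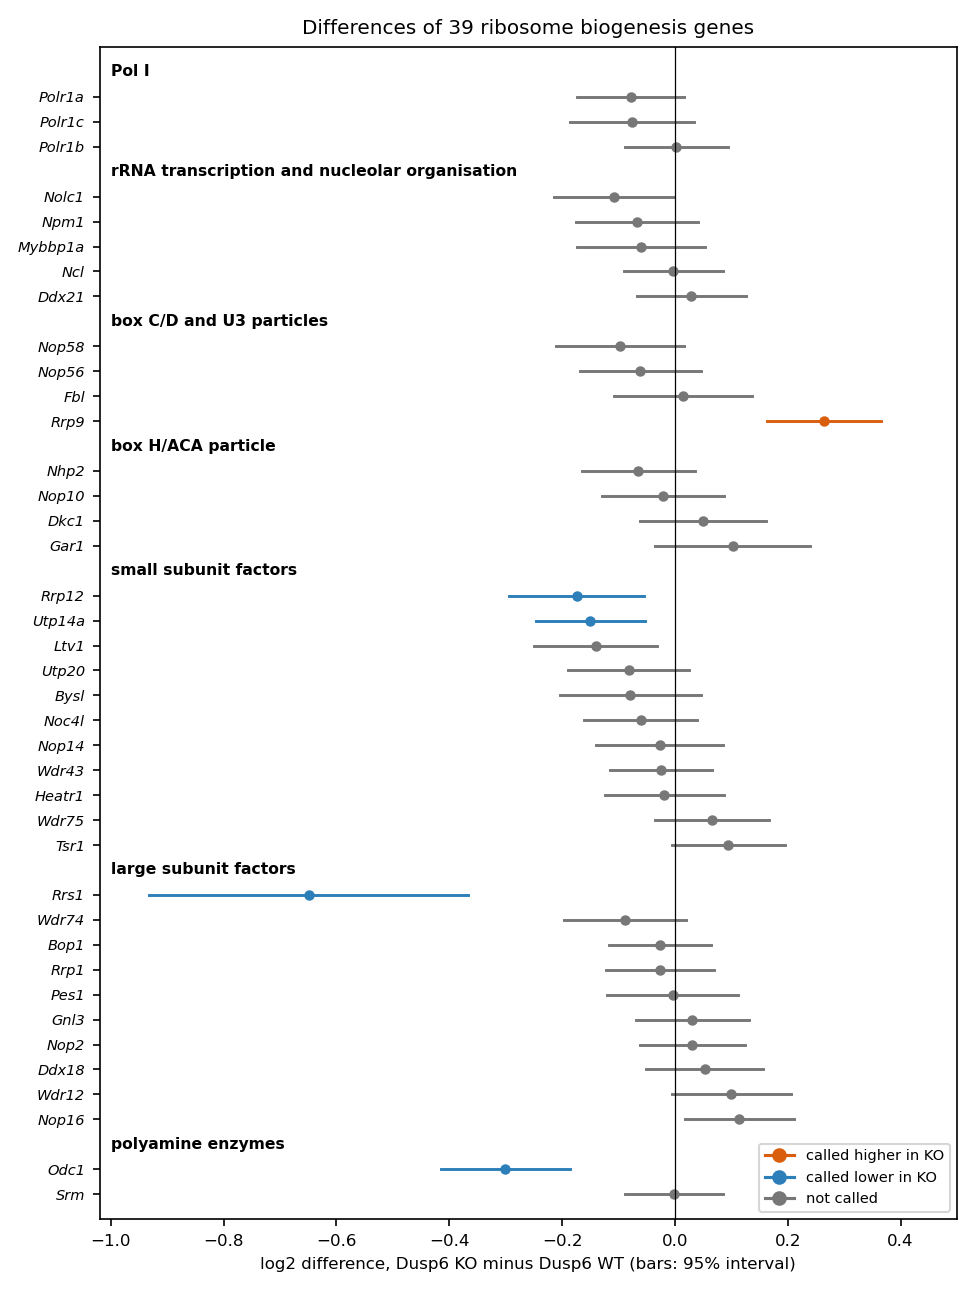
Log2 differences (knockout minus wild type, horizontal axis) of the 39 measured members, grouped by role, with 95% intervals from limma over 3 and 3 arrays. Rrs1 (-0.65) lies farthest from 0 and has the widest interval (-0.93 to -0.37), Rrp9 (0.26) is the only member called higher, and the members that were not called lie between -0.14 and 0.11.

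Rrs1, an assembly factor that helps bring the 5S RNA particle into the large subunit precursor, had the largest difference. Its signal was 10.45, 10.42 and 10.51 on the wild-type arrays and 9.58, 9.68 and 10.16 on the knockout arrays. The knockout values all lay below the wild-type values, yet knockout replicate 3 stood apart from the other knockout arrays, -0.30 from the wild-type mean where replicates 1 and 2 were -0.88 and -0.77 from it. The knockout SD of 0.31 compares with at most 0.10 in the other 38 members. The difference of -0.65 ± 0.13, or 1.57-fold lower, passed the test (limma adjusted p = 0.0053), and it held with any 1 array left out, from -0.83 without knockout replicate 3 (adjusted p = 2.4e-05) to -0.53 without knockout replicate 1 (adjusted p = 0.015). The highest adjusted p of these fits was 0.032, without knockout replicate 2.

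The other 9 large subunit factors measured were not called. With Rrs1, the 10 genes of this role had a median of 0.013, 5 above 0 and 5 below. Pes1 (-0.0038 ± 0.051) and Bop1 (-0.027 ± 0.040), which with Wdr12 form the PeBoW complex needed to mature the large subunit RNA, had 95% intervals of -0.12 to 0.11 and -0.12 to 0.064. Nop16, a nucleolar factor of the large subunit, stood at 12.76, 12.73 and 12.80 on the wild-type arrays and 12.85, 12.86 and 12.92 on the knockout arrays. Its groups did not overlap, and its difference of 0.11 ± 0.043 did not pass the threshold (limma adjusted p = 0.10). Wdr12 (0.100 ± 0.047) also had knockout values that all lay above the wild-type values, and Wdr74 (-0.089 ± 0.048), which acts on the large subunit precursor, had knockout values that all lay below. Nop2 (0.031), a methyltransferase of the large subunit RNA, the RNA helicase gene Ddx18 (0.053), the nucleolar GTPase gene Gnl3 (0.030) and Rrp1 (-0.026) overlapped between the genotypes.

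Among small subunit factors, 9 of 11 had a difference below 0, and the calls were Rrp12 and Utp14a. Rrp12, which takes part in the maturation and export of small subunit precursors, read 10.33, 10.33 and 10.23 on the wild-type arrays and 10.15, 10.04 and 10.18 on the knockout arrays. The difference was -0.17 ± 0.053, or 1.13-fold lower (limma adjusted p = 0.047). Utp14a, a component of the small subunit processome, read 10.16, 10.24 and 10.21 on the wild-type arrays and 10.02, 10.08 and 10.06 on the knockout arrays. Its difference was -0.15 ± 0.043, or 1.11-fold lower (limma adjusted p = 0.036). In both genes the groups did not overlap, and the differences changed little with 1 array left out, from -0.17 to -0.13 for Utp14a and from -0.21 to -0.13 for Rrp12. Their adjusted p lay near the threshold. For Utp14a it was 0.052 to 0.12 with any 1 array left out (limma). For Rrp12 it was 0.059 to 0.15 without any 1 array other than wild-type replicate 3, and 0.039 without that one.

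Ltv1, a late factor of the small subunit precursor, came next at 10.95, 11.07 and 11.02 on the wild-type arrays and 10.92, 10.83 and 10.88 on the knockout arrays. Its groups did not overlap either, and its difference of -0.14 ± 0.049 missed the threshold (limma adjusted p = 0.076). Tsr1, a further late factor, was the highest of this role at 0.095 ± 0.044, with knockout values of 11.64 to 11.70 above wild-type values of 11.52 to 11.62 (limma adjusted p = 0.19). The remaining 7 factors overlapped between the genotypes. They were Heatr1 (-0.019), Wdr43 (-0.025) and Wdr75 (0.065), which join the precursor RNA early, Utp20 (-0.082), Nop14 (-0.027) and its partner Noc4l (-0.060), and Bysl (-0.079).

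Rrp9 was the only member that rose. It encodes the protein that binds the U3 small nucleolar RNA, which guides the first cuts of the ribosomal RNA precursor. Its signal was 10.99, 10.95 and 10.97 on the wild-type arrays and 11.27, 11.17 and 11.26 on the knockout arrays. Each knockout value exceeded each wild-type value by more than either group's SD (0.020 in wild type and 0.058 in knockout), and the difference was 0.26 ± 0.045, or 1.2-fold (limma adjusted p = 0.0025). It held with any 1 array left out, at 0.24 to 0.30.

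None of the core proteins of the small nucleolar RNA particles was called on the probe set used. A second probe set of Fbl, described below, gave another result. Those of the box C/D class, which methylates ribosomal RNA, were at 0.015 ± 0.054 for the methyltransferase gene Fbl, -0.061 ± 0.048 for Nop56 and -0.097 ± 0.050 for Nop58. Those of the box H/ACA class, which makes pseudouridine, were at 0.049 ± 0.050 for the synthase gene Dkc1, 0.10 ± 0.061 for Gar1, -0.065 ± 0.044 for Nhp2 and -0.021 ± 0.048 for Nop10. On the probe sets used, the wild-type and knockout values overlapped in all 7 genes, and 0 passed in limma over all genes or at an unadjusted p under 0.05.

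The 3 RNA polymerase I subunits among the members and the 5 nucleolar organisers were not called. The largest subunit Polr1a read 11.30, 11.32 and 11.29 on the wild-type arrays and 11.21, 11.19 and 11.27 on the knockout arrays. The groups did not overlap, with a difference of -0.078 ± 0.042 (limma adjusted p = 0.26). Polr1b, the other large subunit, was at 0.0025 ± 0.041, and Polr1c, shared with polymerase III, at -0.077 ± 0.049. Nucleolin (Ncl), among the most abundant nucleolar proteins, read 13.68, 13.71 and 13.69 on the wild-type arrays and 13.70, 13.68 and 13.69 on the knockout arrays and its difference was -0.0026 ± 0.039. Npm1 (-0.067), Mybbp1a (-0.060) and the helicase gene Ddx21 (0.029) overlapped between the genotypes. Nolc1, a chaperone of small nucleolar RNA particles, was lower on each knockout array, at 12.18, 12.20 and 12.22 on the wild-type arrays and 12.16, 12.02 and 12.10 on the knockout arrays. Its difference of -0.11 ± 0.047 did not pass (limma adjusted p = 0.16).

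**Figure D2:**
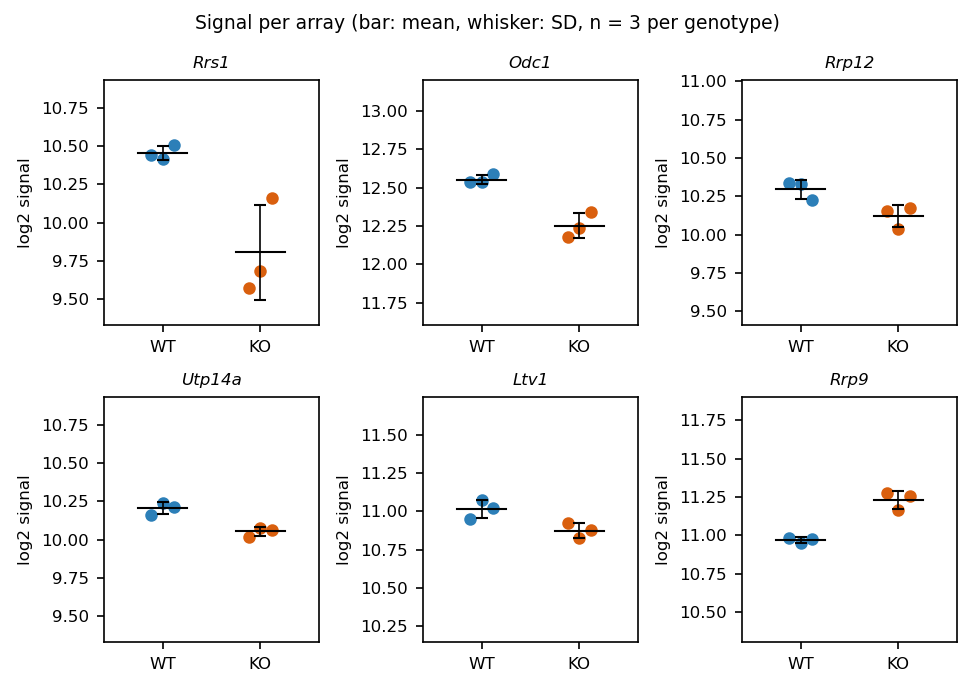
Log2 signal (vertical axis, the same span in each panel) of the 5 called members and of Ltv1 on each array by genotype, with the mean and SD of 3 arrays. The Rrs1 knockout values run from 9.58 to 10.16, while the 3 values of each genotype lie close together in the other panels and the genotypes do not overlap in any panel.

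The polyamine enzymes gave a call that depends on the probe set. Odc1, the rate-limiting enzyme of polyamine synthesis, has a pair of probe sets with 1 symbol. On the brighter probe set, which the rule takes, the signal was 12.54, 12.54 and 12.59 on the wild-type arrays and 12.18, 12.24 and 12.34 on the knockout arrays. That is a difference of -0.30 ± 0.051 with no overlap (limma adjusted p = 0.0024). On the other probe set it was 12.28, 12.29 and 12.29 on the wild-type arrays and 12.24, 12.23 and 12.34 on the knockout arrays, with overlapping groups and a difference of -0.020 ± 0.045 (95% interval -0.12 to 0.081, limma adjusted p = 0.82). The mean of the pair was lower by a difference of -0.16 (limma adjusted p = 0.039). Srm, which makes spermidine from the product of Odc1, read 13.70, 13.68 and 13.71 on the wild-type arrays and 13.70, 13.69 and 13.69 on the knockout arrays, and its difference of -0.0016 ± 0.039 had an interval of -0.089 to 0.086. Of 7 other polyamine genes measured, 0 were called in limma and 1 had an unadjusted p under 0.05.

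Probe set numbers on this platform follow genome order, which allows the probe sets to be placed roughly. Of consecutive named probe sets, 94.3% belong to genes of the same chromosome, and 96.8% of named probe sets stand among genes of their own chromosome, taking the 10 named neighbours on either side. The brighter Odc1 probe set stands among genes of chromosome 8 (20 of 20 neighbours, between Car5a and Trhr2), whereas Odc1 lies on chromosome 12, where the dimmer probe set stands, between Nol10 and Hpcal1. Of the 39 probe sets used, 36 stood on their gene's chromosome. The others were those of Odc1, Wdr12 (18 of 20 neighbours on chromosome 7, gene on 1) and Ddx18 (17 of 20 on chromosome 6, gene on 1). A further fit took the brightest probe set that stands on the gene's own chromosome, and the brightest of all where a gene had none there. This left Odc1 at -0.020 and not called, and kept the calls of Rrp9, Rrs1, Rrp12 and Utp14a.

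The paired probe sets of the other 3 genes can be set side by side in the same way. For Wdr12 they gave 0.100 ± 0.047 on chromosome 7 and 0.13 ± 0.059 on its own, and for Ddx18 0.053 ± 0.046 on chromosome 6 and 0.13 ± 0.060 on its own. Fbl differed in sign. Its probe set on its own chromosome, the brighter of the pair, gave 0.015 ± 0.054. The other, which stands among genes of chromosome 17, read 12.86, 12.88 and 12.79 on the wild-type arrays and 12.72, 12.63 and 12.69 on the knockout arrays, a difference of -0.16 ± 0.046 with no overlap (limma adjusted p = 0.035 over all probe sets with 1 symbol). What transcripts the probe sets on other chromosomes detect was not tested.

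**Figure D3:**
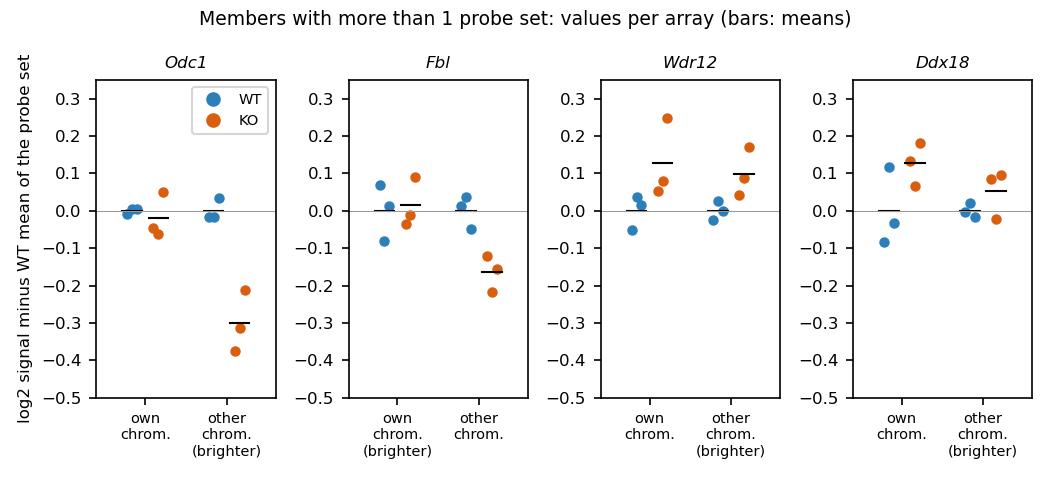
Log2 signal of each array minus the wild-type mean of the same probe set (vertical axis) for the 4 members with more than 1 probe set, split by whether the probe set is numbered among genes of the gene's own chromosome. For Odc1 the probe set on its own chromosome is near 0 (-0.020) and the other is lower in knockout (-0.30), for Fbl the same holds (0.015 and -0.16), and for Wdr12 and Ddx18 both probe sets lie above 0.

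The knockout arrays did not read the members alike. Centred on each gene's own mean over the 6 arrays, the median of the members was 0.0042, 0.027 and 0.011 on the wild-type arrays and -0.019, -0.048 and 0.017 on the knockout arrays. Knockout replicate 3 thus lay within the wild-type range and replicates 1 and 2 below it. Replicate 3 held the highest knockout value in 23 of 39 members and the lowest in 1, and replicate 2 held the lowest in 26. The same medians over all genes were 0.020, -0.017 and -0.0045 in knockout. The median difference of the members was -0.040 without knockout replicate 3 and -0.014 without knockout replicate 2.

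Promoter sequence was examined for motifs of factors known to act on growth genes. RefSeq promoter windows of 300 bases (250 before and 50 after the annotated start, GRCm38.p6) were found for 33 of the 39 members, 35 windows in all, and not for Npm1, Fbl, Rrp12, Rrs1, Bop1 and Srm. The palindromic E-box CACGTG, the site bound by MYC with MAX, occurred in 7 windows (20%, against 7.15% of all 32851 windows and 7.84% of those of protein-coding genes). CCGGAAG, the core of sites for ETS factors, several of which are ERK substrates, occurred on either strand in 9 (25.7%, against 8.86% and 11.6%). CCAAT, bound by NF-Y, occurred on either strand in 11 (31.4%, against 37.4% and 38.2%). The member windows had a median GC content of 58%, against 52.7% of all windows and 56.3% of those of protein-coding genes. The called members with a window (Rrp9, Utp14a and Odc1) held neither CACGTG nor CCGGAAG inside it. Sequence outside the windows, such as introns farther in, was not searched. These are matches of letters, not measured binding.

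The E-box matches are shown since MYC is a known activator of genes of this kind, each with up to 12 bases on either side, read 5′ to 3′ on the gene's strand with CACGTG in capitals (RefSeq, GRCm38.p6).
Ltv1 (chr10:13193092-13193121, - strand): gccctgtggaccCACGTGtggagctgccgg
Mybbp1a (chr11:72441355-72441376, + strand): gtcttctgagccCACGTGtttg
Nop2 (chr6:125131811-125131840, + strand): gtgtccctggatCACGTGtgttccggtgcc
Pes1 (chr11:3963965-3963994, + strand): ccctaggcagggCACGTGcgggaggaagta
Tsr1 (chr11:74898092-74898121, + strand): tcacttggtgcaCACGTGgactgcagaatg
Utp20 (chr10:88826765-88826789, - strand): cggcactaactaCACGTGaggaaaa
Wdr43 (chr17:71616220-71616249, + strand): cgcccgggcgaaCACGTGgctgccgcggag
The match began 60 bases before the annotated start in Nop2 and 3 to 41 bases into the transcript in the other 6 genes. None of these 7 genes was called, with differences from -0.14 (Ltv1) to 0.095 (Tsr1).

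Of 33 members searched, 10 had a measured gene of the opposite strand that started within 1000 bases upstream, and 2 of these 10 partners were called, a share near the 19.8% of all genes. Rrp9 and Parp3 were the 1 pair in which both genes were called. The Rrp9 start on chromosome 9 lies 360 bases from that of Parp3, a gene of the poly(ADP-ribose) polymerase family that is read in the opposite direction (starts at 106477309 and 106476949, GRCm38.p6). Parp3 was higher in knockout by 0.24 ± 0.043 (limma adjusted p = 0.0038), beside 0.26 ± 0.045 for Rrp9. The 250 bases before the Rrp9 start are shown for this reason, and all lie between the starts of the 2 genes. They are given on the Rrp9 strand, with the 2 CCAAT matches in capitals. Genes farther out on chromosome 9 are not compared here, so the rise may not be particular to this pair. The cause of the rise in both genes was not tested.
Rrp9 upstream (chr9:106477059-106477308, + strand): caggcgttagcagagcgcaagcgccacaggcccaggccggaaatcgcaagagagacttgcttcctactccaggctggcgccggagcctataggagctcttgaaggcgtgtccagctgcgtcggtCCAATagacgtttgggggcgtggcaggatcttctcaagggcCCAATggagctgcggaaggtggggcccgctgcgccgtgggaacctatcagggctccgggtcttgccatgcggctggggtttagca
Carf, opposite Wdr12, fell (-0.19 ± 0.048, limma adjusted p = 0.023) while Wdr12 was at 0.100. The other 8 partners were not called and ranged from -0.12 (Med20, opposite Bysl) to 0.11 (Ddx51, opposite Noc4l).

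Most other genes of the pathway were not called either. Of 128 further ribosome biogenesis genes measured, 8 rose and 5 fell, 10.2% called, and their median was -0.0072. Those that rose most were Znrd1, a small subunit of polymerase I (0.41, adjusted p = 0.00016), and Noc3l, a large subunit factor (0.27, adjusted p = 0.0019). They were followed by the helicase gene Ddx55 (0.24), the RNA cap methyltransferase gene Tgs1 (0.23), the processome GTPase gene Bms1 (0.18) and Rbm28 (0.16). Those that fell were the exosome gene Exosc5 (-0.22), Eif6, which keeps the large subunit from joining too early (-0.22), Sdad1 (-0.21), Pno1 of the small subunit (-0.18) and Urb1 (-0.17). The adjusted p of the genes in the last 2 sentences ran from 0.0027 to 0.049 in limma. Rrs1 had a larger difference than any of these genes.

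The products that the pathway assembles are the cytosolic ribosomal proteins. The 60 genes measured were picked by name, which also takes in like-named genes such as Rpl7l1, Rpl3l (7.44 in wild type) and Rpl39l (6.35). The genotypes were fully separated in 29 of them, 25 lower and 4 higher in knockout (48.3%, against 35.7% of all genes). Their median was -0.047, with 46 genes below 0. Wild-type means in this list reached 14.43, where the highest signals of the arrays were 14.79 to 14.83. Whether differences are compressed near that ceiling was not tested. Of the 60, 3 were called lower and 0 higher (5%, against 19.8% of all genes). The 3 were Rps9 (-0.41, or -0.14 and not called, with an adjusted p of 0.053 in limma, as the mean of its probe sets), Rpl13 (-0.27) and Rpl12 (-0.25). Ribosomal protein genes have many processed copies in the genome, which probes may share. Whether the probe sets used for these genes stand on their genes' own chromosomes is not given here. The counts, the median and the calls of this list may rest in part on probe sets numbered elsewhere. RNA polymerase III and its factors, which make the 5S RNA, gave 2 that rose and 2 that fell of 18. That is 22.2% called, near the 19.8% of all genes. Among the called were Gtf3c6 (0.22), Polr3b (0.21) and Gtf3c5 (-0.18).

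In the MYC network, 2 of 12 genes rose and 2 fell (33.3% called, against 19.8% of all genes). Mxd4 rose by 0.68 and Mxi1 and Mxd3 changed by -0.30 and -0.29. All 3 encode partners of MAX that oppose MYC. Myc itself, named after its value was seen, read 13.60, 13.64 and 13.64 on the wild-type arrays and 13.66, 13.47 and 13.63 on the knockout arrays, a difference of -0.045 ± 0.056 (limma adjusted p = 0.66). Of 22 proliferation genes 10 fell and 0 rose, 45.5% called, with a median of -0.12. The mitotic kinase gene Ttk changed by -0.41 and the replication genes Gins1 and Cdt1 by -0.40 and -0.40. Proliferation genes thus had a share of called genes above the 19.8% of all genes, and the ribosome biogenesis factors a share below it. That difference between the lists was not tested, and the part of proliferation in the members' values was not tested either.

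**Figure D4:**
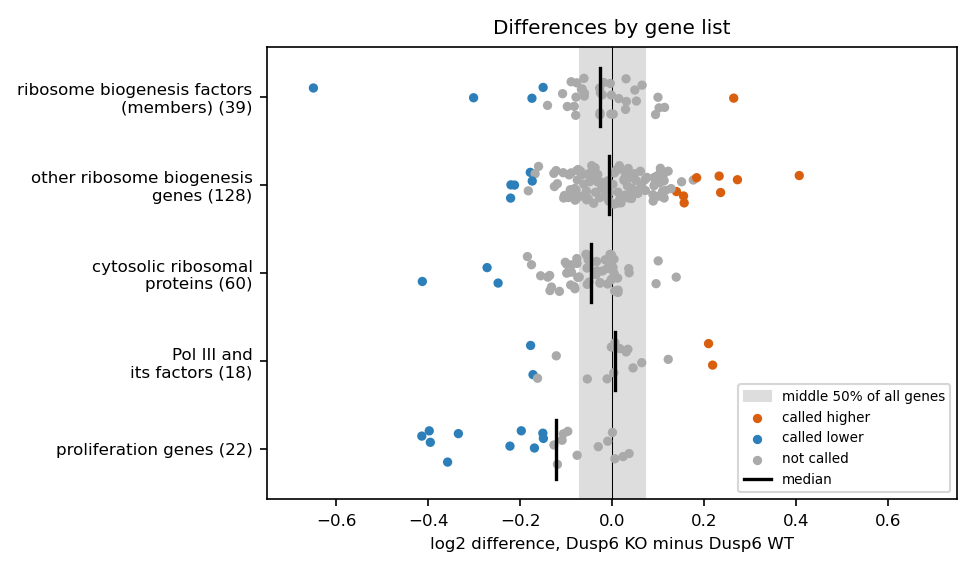
Log2 differences (horizontal axis) of single genes in 5 lists, with the list median as a black bar and the middle 50% of all genes shaded. The medians are -0.026 for the 39 members, -0.0072 for other ribosome biogenesis genes, -0.047 for ribosomal proteins, 0.0063 for polymerase III and its factors and -0.12 for proliferation genes.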

How the data were processed

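Total RNA of 6 samples, 3 Dusp6 wild-type and 3 Dusp6 knockout, was measured on Affymetrix arrays. The deposited values are log2 signals, 1 per probe set and array. RMA, which corrects background, equalises arrays and summarises probes, and Partek 6.5 were used, per the submitters' processing notes. Further RMA settings: not given in the sources used here. Precision is limited by having 6 arrays.

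Of 35556 probe sets, 21789 had 1 symbol, 1621 several and 12146 none here. Entrez identifiers of 21698 were found in the RefSeq table of GRCm38.p6, and 0 symbols changed. Of 19938 genes, 999 had several probe sets, and the brightest was used. Every gene was fitted with limma 3.58.1 in R 4.3.3 (lmFit, eBayes, genotype as the only term), with Benjamini-Hochberg adjustment and a threshold of 0.05. The fit was tested on simulated data. With 3 arrays against 3 an exact two-sided permutation test of 1 gene cannot go below 0.1, so none was used.

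Named genes were all measured members, Dusp6, up to 6 called genes in each direction among other ribosome biogenesis genes, and up to 3 called genes of each other list. Parp3, Carf, Med20, Ddx51, Itgam, Csf3r, Rag1 and Myc were named after their values were seen. The members and lists were chosen with earlier results of these data known. Of 15 alternatives run, 14 were planned, and the choice of probe sets by chromosome was added after seeing the data.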

Additional observations from a re-analysis of the deposited data

How the results depend on the processing

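The threshold results were compared under 15 alternatives. Of 585 member values, 544 kept their direction and their side of the threshold, and Rrs1 and Rrp9 were called in all 15 (Rrs1 from -0.83 to -0.53, Rrp9 from 0.24 to 0.30). Odc1 lost its call only with probe sets chosen by chromosome. Utp14a kept its call in 6 alternatives and Rrp12 in 7, while Ltv1 was called in 4 and Nop16 in 2. Members called lower were 2 with quantile normalization repeated, with every probe set tested and with the replicate block, and 2 to 3 with 1 array left out. Members called higher were 2 without genes below the median and with trend and robust options, and 1 with any 1 array left out. The median of the members was -0.038 with each array centred on its median and -0.040 to -0.014 with 1 array left out.

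Other ribosome biogenesis genes called higher were 5 with every probe set tested and 5 with the replicate block, against up to 12 without genes below the median, and those called lower were 11 without genes below the median, 11 with trend and robust options and 2 with every probe set tested. Leaving out 1 array gave 3 to 7 higher and 1 to 5 lower. Ribosomal protein genes called lower were 6 and 9 without genes below the 25th percentile and below the median, 11 with trend and robust options and 1 with every probe set tested. Those called higher were 1, 1 and 3 in the first 3 of these and 2 with the mean of the probe sets of a gene. With 1 array left out, 1 to 6 fell and 0 to 1 rose, and 6 to 8 proliferation genes fell and 0 rose. Over all alternatives 6 to 15 proliferation genes were called lower, the most with trend and robust options, and 0 higher. Over the leave-one-out fits, genes called higher numbered 1491 to 1730 and genes called lower 1512 to 1959. Some alternatives tested fewer genes or used fewer arrays, and the cause of these changes in the counts was not tested.

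The direction turned in 8 members, each near 0 and called in neither setting. Polr1b was at -0.0091 with arrays centred and Fbl at -0.075 with the mean of its probe sets. With 1 array left out, Polr1b ran from -0.011 to 0.018, Fbl from -0.026 to 0.049, Srm from -0.0086 to 0.0028, Ncl from -0.0092 to 0.0061, Pes1 from -0.037 to 0.034, Heatr1 from -0.049 to 0.013, Nop14 from -0.065 to 0.0094 and Nop10 from -0.064 to 0.0050. Deviations of same-numbered arrays correlated at 0.010, -0.117 and 0.053, and those of differently numbered arrays at -0.152 to 0.133. Same-numbered arrays thus were no more alike, but 3 arrays per genotype cannot exclude a pairing. With the replicate block the differences were the same, and the adjusted p in limma was 0.062 for Utp14a and 0.086 for Rrp12. Over all 15 alternatives, Utp14a ran from -0.17 to -0.13 and Rrp12 from -0.21 to -0.13. Of 28 other named genes, 11 lost their call in at least 1 alternative.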
